A study of Mus musculus with 23 samples.

Results

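The 9 genes described here, Gfap, Vim, Slc1a2, Slc1a3, Glul, Aqp4, Gja1, S100b and Aldh1l1, are widely used to mark astrocytes. They were chosen by symbol: every row of the normalized table whose transcript identifier carries 1 of these symbols in the array annotation was taken. The rule gave 11 features (transcript identifiers) of 31395 in the table, with 2 each for Gfap and Slc1a2 and 1 for each other gene, and no listed gene was missing. The tissues were frontal cortex, striatum and hypothalamus, here FC, ST and HT, of female C57BL/6 mice aged 5 weeks when the experiment began. One group had standard chow alone (SC) and the other a free choice of chow and a chocolate mixture (CM) for 8 weeks, and all mice then went through an 11-day behavioral test battery before dissection. There were 4 arrays of each diet and region, except 3 for CM FC, and the 3 regions came from the same mice. The free choice was suspended in some tests of the battery, and SC mice were also given CM for short daily sessions in one of them, so the comparison is between long access and brief access. Another test offered CM made bitter with quinine. All mice were of the one strain, with no transgene or deletion in either group.

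Astrocytes clear glutamate from the synapse through the transporters encoded by Slc1a2 (GLT-1) and Slc1a3 (GLAST) and convert it to glutamine with glutamine synthetase (Glul). They couple to each other through gap junctions of connexin 43 (Gja1) and move water through aquaporin 4 (Aqp4), which lines their endfeet on blood vessels. Gfap and Vim encode intermediate filament proteins of the astrocyte cytoskeleton and are known to rise when astrocytes react to injury. S100b encodes a calcium-binding protein and Aldh1l1 a folate enzyme found in most astrocytes. In whole tissue, fewer astrocytes and less RNA per astrocyte cannot be told apart.

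The 14 probes of these genes, each 60 bases long, all passed the filter on low values and lay well above background on all 23 arrays, and none was saturated. Slc1a2 and Gfap each had 2 transcript identifiers, so 1 probe of each gene is shown. The sequences run 5′ to 3′ in the sense of the transcript and were read from the array annotation. Whether a probe reads only the transcript it is assigned to was not tested. The Slc1a2 probe of NM_011393 lies at chr2:102617752-102617811 on the plus strand (mm9) and starts at base 1615 of that transcript. Of its reading frames, 1 has no stop codon, the one that starts at base 2. The Gfap probe of NM_001131020 lies at chr11:102752726-102752785 on the minus strand (mm9) and starts at base 1294, and 2 of its frames have no stop codon. This transcript is the alternatively spliced form with another carboxy terminus, known as GFAP delta. No letters are capitalized because no part of either probe is singled out.
Slc1a2 NM_011393: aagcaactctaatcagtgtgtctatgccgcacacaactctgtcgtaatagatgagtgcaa
Gfap NM_001131020: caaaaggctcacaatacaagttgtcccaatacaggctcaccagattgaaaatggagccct
The other Gfap probes lie nearer the 3′ end. The second probe of NM_001131020 is at chr11:102751813-102751872 and the probe of NM_010277, the common form, at chr11:102748864-102748923. Gja1 was read at chr10:56109814-56109873, S100b at chr10:75723783-75723842, and the probes of Slc1a2 NM_001077514 at chr2:102622252-102622311 and chr2:102626380-102626439.

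The arrays lay on 3 slides, identified by the barcode in the file headers, and the slides were unevenly split over the groups. The arrays of each CM group shared a single slide, slide 3 for FC, slide 1 for ST and slide 2 for HT. Slide 1 also held 3 SC FC arrays and slide 3 held 3 SC HT arrays, with the remaining array of each group (L52 of FC, L58 of HT) placed on slide 2. The SC ST arrays were spread over all 3 slides. Diet values within a slide can therefore be had only for ST and HT, and none for FC. Spots well above background numbered 36432 to 38472 on SC FC arrays and 41481 to 42261 on CM FC arrays. The tissue labels were checked against marker lists. All 10 striatum features were higher in ST than in FC of SC mice, where 14.9% of all features were called in either direction. Of the HT arrays, which the sample labels call thalamic and the protocol hypothalamic, in SC mice both kinds of marker were higher than in FC: all 11 thalamus features, Gbx2 by 5.07 log2 units, and 6 of 10 hypothalamus features, Pmch by 8.15 and Hcrt by 7.59. The HT values thus come from tissue with RNA of both regions. Npy, also on the hypothalamus list, was lower. Between HT and FC of SC mice 43.2% of all features were called in either direction, and the 11 thalamus features stand for 7 genes. The mean level of the hypothalamus list was 7.59 to 11.1 on the SC ST arrays and 9.36 to 12.69 in SC HT. In SC ST Hcrt reached 15.45 and Pmch 14.4, inside their SC HT ranges (13.24 to 16.73 and 13.62 to 15.9). The cortex list was at 8.32 to 9.79 in SC ST and 9.74 to 10.58 in SC FC. The part of such RNA in the comparisons with ST was not tested.

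The clearest pattern was regional (the plot of levels on the 23 arrays). In SC mice, HT against FC gave higher S100b, Gja1 and Aqp4 and lower values of both Slc1a2 features, while Gfap, Vim, Slc1a3, Glul and Aldh1l1 did not pass the test. With limma, 5 of 11 features (45.5%) passed an adjusted p of 0.05, against 43.2% of all features, so the share called was close to the background of that comparison. The 6 features whose SC HT and SC FC arrays did not overlap, the 5 named and Glul (0.14 ± 0.09, adjusted p = 0.212), compare with 32.4% of all features. HT against ST gave the same 5 features in the same directions, 45.5% against a background of 21.5%. In CM mice 8 of 11 features (72.7%) differed between HT and FC and 7 of 11 (63.6%) between HT and ST, against backgrounds of 57.8% and 56.3%. With slide as a fixed block, 5 of 11 members passed between HT and FC in SC mice, against 14.8% of all features, and 4 of 11 between HT and ST, against 15%. Of the 5 features called between HT and ST without the block, 3 passed with it (Aqp4, Gja1 and Slc1a2 NM_011393), and the other that passed was Aldh1l1.

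**Figure D1:**
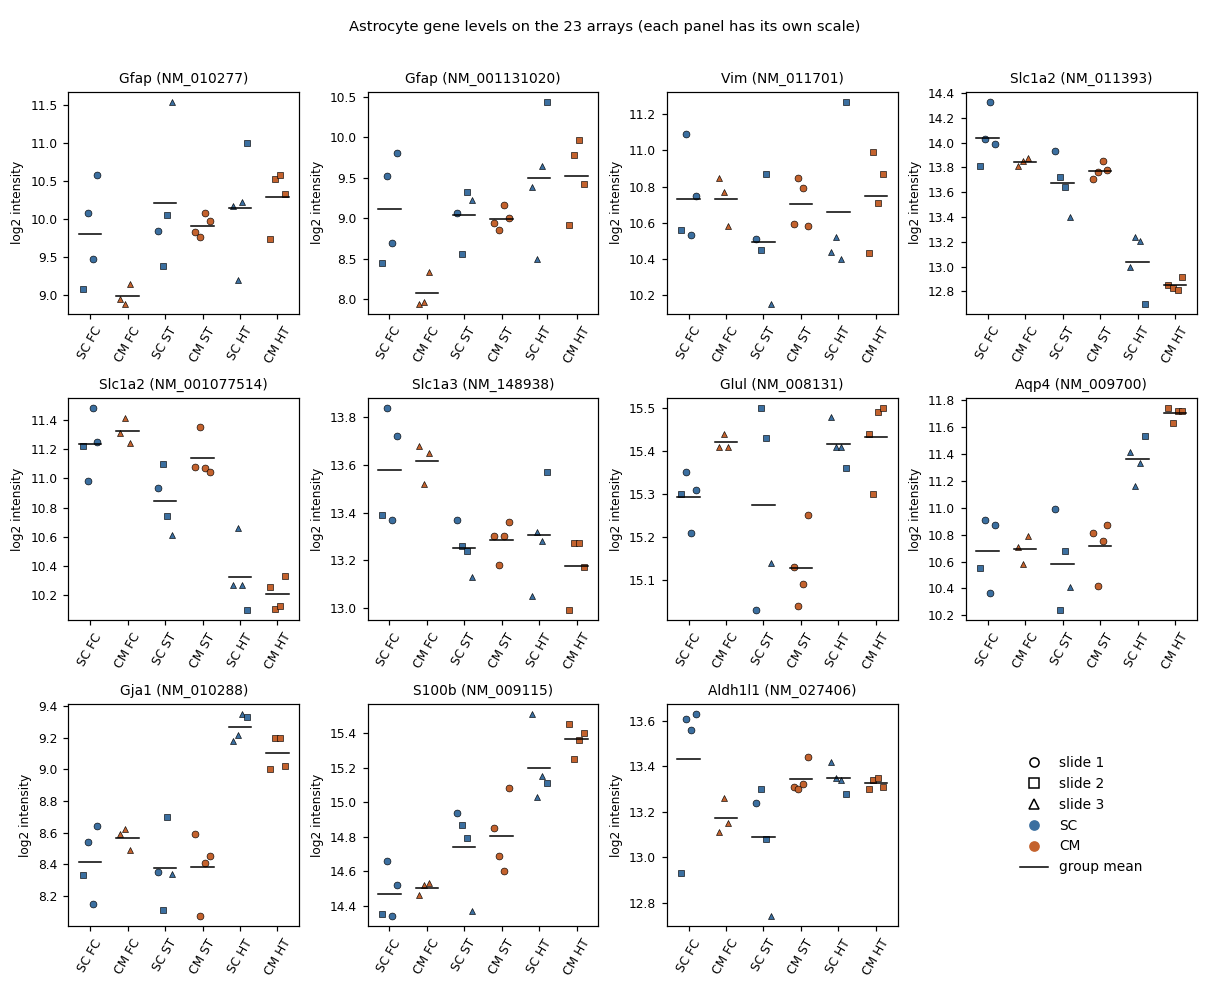
Log2 intensity (vertical axis, own scale in each panel) of the 11 features in the 6 groups of arrays (horizontal axis). Each point is 1 array, its shape the slide and its color the diet, and the line is the group mean. Slc1a2 was lowest and Aqp4, Gja1 and S100b were highest in HT in both diets, and the CM FC arrays had the lowest group mean of Gfap.

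The glutamate transporters differed in the size of their regional differences, though the genes were not tested against each other. Slc1a2 NM_011393, the transporter that takes up most glutamate in the forebrain, had log2 levels of 13.81, 14.03, 14.33 and 13.99 in the SC FC arrays. In SC ST the levels were 13.93, 13.72, 13.64 and 13.40, and in SC HT they were 13, 13.24, 13.21 and 12.70. Every HT array lay below every FC and ST array, whereas FC and ST overlapped. The HT-FC difference was -1.01 ± 0.11 log2 units (SE), 2.01-fold lower in HT (limma, adjusted p = 1.38e-06), and the HT-ST difference was -0.58 ± 0.12 (adjusted p = 0.00158). The other transcript feature, NM_001077514, gave -0.94 ± 0.13 for HT-FC (adjusted p = 1.59e-05) and -0.51 ± 0.14 for HT-ST (adjusted p = 0.013). In CM mice the 4 HT arrays lay between 12.81 and 12.92 for NM_011393 and the 3 FC arrays between 13.81 and 13.88, and the HT-FC difference was -1.01 ± 0.08 (adjusted p = 1.09e-09). With slide as a fixed block, the HT-FC difference of NM_011393 stayed past the threshold in both diets, at -0.81 and -0.88. On slide 2 alone, with 1 SC array of each region, it was -1.11. Between HT and ST in SC mice it was -0.98 on slide 2 and -0.26 on slide 3, and the value of NM_001077514 no longer passed with the block (-0.49, adjusted p = 0.146).

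Slc1a3, the transporter that predominates in Bergmann glia and in development, had HT-FC differences of the same sign as Slc1a2 but smaller. In SC mice its log2 levels ran from 13.37 to 13.84 in FC, from 13.13 to 13.37 in ST and from 13.05 to 13.57 in HT, and no regional difference passed the test (HT-FC -0.28 ± 0.12, adjusted p = 0.0572, and ST-FC -0.33 ± 0.14, adjusted p = 0.12). In CM mice the FC arrays, at 13.52 to 13.68, lay above all ST arrays (13.18 to 13.36) and all HT arrays (12.99 to 13.27). There the HT-FC difference was -0.41 ± 0.08 (adjusted p = 0.000188) and the ST-FC difference -0.33 ± 0.08 (adjusted p = 0.00253), and with the slide block these were -0.63, past the threshold, and -0.68 (adjusted p = 0.0961). Glul had the narrowest range of the members, 15.03 to 15.50 over the 23 arrays. Its regional differences passed the test only in CM mice, where ST was lower than FC by 0.30 ± 0.06 (adjusted p = 0.000309) and lower than HT by 0.31 ± 0.06 (adjusted p = 0.000242). With the slide block these Glul differences were -0.19 for ST-FC (adjusted p = 0.634) and 0.11 for HT-ST (adjusted p = 0.6).

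Aqp4 and Gja1, genes of the astrocyte network and endfeet, were highest in HT. Aqp4 measured 11.41, 11.16, 11.33 and 11.53 in the SC HT arrays, 10.55, 10.91, 10.37 and 10.87 in SC FC, and 10.99, 10.24, 10.68 and 10.41 in SC ST. Every HT array thus lay above every array of the other regions. The HT-FC difference was 0.69 ± 0.14 log2 units, 1.61-fold (adjusted p = 0.000754), and the HT-ST difference 0.76 ± 0.15 (adjusted p = 0.00115). Gja1 measured 9.18, 9.22, 9.35 and 9.33 in SC HT, against 8.15 to 8.64 in SC FC and 8.11 to 8.70 in SC ST, again with no overlap. Its HT-FC difference was 0.89 ± 0.14, 1.85-fold (adjusted p = 5.8e-05), and its HT-ST difference 0.82 ± 0.15 (adjusted p = 0.000494). On slide 2 alone HT minus FC was 0.99 for both genes. For HT minus ST on slides 2 and 3, Aqp4 gave 1.07 and 0.89, and Gja1 0.92 and 0.91.

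S100b was highest in HT as well. In SC mice it measured 14.35, 14.66, 14.34 and 14.52 in FC, 14.94, 14.87, 14.79 and 14.37 in ST, and 15.51, 15.03, 15.15 and 15.11 in HT. HT was above FC by 0.72 ± 0.13 (adjusted p = 0.000136), with no overlap. HT was above ST by 0.39 ± 0.13 (adjusted p = 0.0401), also with no overlap, but this call was kept in 3 of 8 fits that left out 1 array. It was lost without L52, L56 or L58 of ST (0.42, 0.36 and 0.35) and without L52 or L58 of HT (0.33 and 0.40), with adjusted p up to 0.0897, and with the slide block (0.57, adjusted p = 0.0539). ST and FC were not told apart (0.33 ± 0.15, adjusted p = 0.145). S100b is also made by oligodendrocytes. Of their 9 marker features, 7 were higher and 1 lower in SC HT than in SC FC (88.9%, against 43.2% of all features). The mean level of this list was 13.21 to 13.44 in SC HT and 12.06 to 13.09 in SC FC. Between HT and ST of SC mice none of the 9 was higher and 2, both of Mbp, were lower. That was 22.2%, against 21.5% of all features. The part of oligodendrocytes in the S100b result was not tested.

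In CM mice these 3 genes were again highest in HT. HT exceeded FC by 1.02 ± 0.10 for Aqp4, 0.55 ± 0.10 for Gja1 and 0.85 ± 0.08 for S100b, and exceeded ST by 0.98 ± 0.10, 0.74 ± 0.10 and 0.58 ± 0.09 (adjusted p between 2.49e-08 and 5.44e-05). All 6 differences were past the threshold with the slide block, except HT-FC of Gja1 (0.48, adjusted p = 0.228).

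In SC mice the SD of Gfap was larger than that of every other gene among the members in each region. Over the 23 arrays NM_010277 ran from 8.88 to 11.54, and within SC ST, SC FC and SC HT its SD was 0.93, 0.66 and 0.74 log2 units (n = 4 each). The SC ST value includes the array of mouse L58, at 11.54. For NM_001131020 the SD was 0.34, 0.65 and 0.8, and in SC ST that of Aqp4 was 0.33. In SC mice no regional difference of Gfap passed the test (HT-FC 0.21 ± 0.36 for NM_010277 and 0.29 ± 0.36 for NM_001131020). In CM mice the SD of NM_010277 was smaller, at 0.14 for FC, 0.14 for ST and 0.39 for HT. That of NM_001131020 was 0.22, 0.13 and 0.46. A smaller SD in CM mice was not particular to Gfap. It held for every member feature in FC and ST, and in HT for all but Gja1 and Glul. The arrays of each CM group also shared 1 slide, and those of each SC group did not. In CM mice Gfap was lowest in FC. NM_010277 measured 8.94, 8.88 and 9.14 in CM FC, 9.83, 9.76, 10.07 and 9.97 in CM ST, and 9.73, 10.53, 10.58 and 10.33 in CM HT. CM FC thus lay below both other regions on every array, by 1.39 ± 0.24 against HT (adjusted p = 5.9e-05) and 0.94 ± 0.26 against ST (adjusted p = 0.00402). With the slide block these differences were 1.73 (adjusted p = 0.053) and 0.99 (adjusted p = 0.51). NM_001131020 gave 1.55 ± 0.24 for HT-FC and 0.94 ± 0.26 for ST-FC, and also 0.62 ± 0.26 for HT-ST (adjusted p = 0.0464), a call kept in 2 of 8 fits that left out 1 array and lost without any ST array or without O54 or O56 of HT (0.34 to 0.69). With the slide block none of these passed for NM_001131020, at 1.1 for HT-FC (adjusted p = 0.233), 0.17 for ST-FC (adjusted p = 0.941) and 0.93 for HT-ST (adjusted p = 0.208). Of 6 ependyma and tanycyte features, 4 were higher and 1 lower in HT than in FC of CM mice. That was 83.3%, against 57.8% of all features, with a median difference of 1.74. In ST against FC 4 of 6 were higher (66.7%, against 60.6% of all features, median 1.48). With the slide block 1 was higher in HT and none in ST, against 16% and 3.17% of all features called. Their part in the Gfap differences was not tested. Within slides, HT minus ST of Gfap NM_010277 in SC mice was 1.28 on slide 2 and -1.68 on slide 3. The slide 3 value rests on 1 SC ST array, L58 at 11.54. For NM_001131020 the values were 1.5 and -0.05.

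The Gfap features went largely together, with 1 array apart. The 2 features correlated at r = 0.86 over the 23 arrays, and at 0.83 as deviations from the group means. On the SC ST array of mouse L58, NM_010277 measured 11.54, the highest of all 23, while the probes of NM_001131020 measured 11.34 and 7.11 there, within the range of the other SC ST arrays (10.58 to 11.39 and 6.53 to 7.25). Levels of different probes cannot be compared, but the rank of that array differed between the features. Vim, the other filament gene, ran from 10.15 to 11.27 and differed between no pair of regions in either diet, with differences from -0.15 to 0.07.

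**Figure D2:**
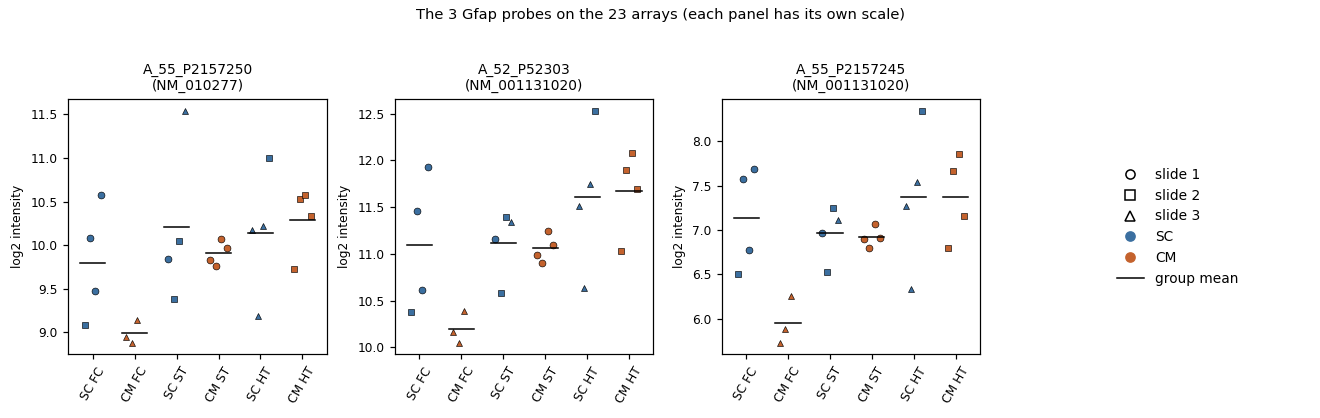
Log2 intensity (vertical axis, own scale in each panel) of the 3 Gfap probes in the 6 groups (horizontal axis). Points are arrays, shapes are slides, colors are diets and lines are group means. The SC ST array on slide 3 (mouse L58) stands apart at 11.54 in the panel of NM_010277 and not in the others.

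Aldh1l1 differed little between regions. Its log2 levels in SC mice were 12.93, 13.61, 13.56 and 13.63 in FC, 13.24, 13.30, 13.08 and 12.74 in ST and 13.28 to 13.42 in HT. The ST-FC difference was -0.39 ± 0.12 (adjusted p = 0.0292). Together with Slc1a2 NM_011393 (-0.43 ± 0.13, adjusted p = 0.036), this made 2 of 11 features (18.2%) between ST and FC of SC mice, against 14.9% of all features. Neither passed with the slide block (-0.10 and -0.23), and within slides 1 and 2 Aldh1l1 gave -0.36 and 0.26. Aldh1l1 lost its call without L52 or L56 of ST or L54 of FC (-0.39, -0.29 and -0.34), and Slc1a2 without L54 or L56 of FC or L56 or L58 of ST (-0.45, -0.29, -0.40 and -0.40). In CM mice ST and FC differed in 5 of 11 features (45.5%), below the background of 60.6%: Gfap by both features, S100b (0.27 ± 0.09), Slc1a3 and Glul. None of the 5 passed with the slide block, which called 3.17% of all features, and there S100b turned to -0.05. The S100b call was also lost without O52 or O58 of ST (0.22 and 0.20) or O54 of FC (0.25). Between HT and ST Aldh1l1 passed with the block in both diets, at 0.40 ± 0.13 in CM mice (adjusted p = 0.0353), against 0.00 ± 0.07 without it, and at 0.42 ± 0.14 in SC mice (adjusted p = 0.05 after rounding up), against 0.22 ± 0.11.

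For diet, the question was whether long CM access changed astrocyte genes in each region. In FC, 3 of 11 features (27.3%) were lower in CM mice and none higher, against 28.6% of all features called in either direction and 13.2% called lower. Gfap NM_001131020 fell by 1.09 ± 0.33 log2 units, 2.14-fold (adjusted p = 0.0178), Gfap NM_010277 fell by 0.90 ± 0.33 (adjusted p = 0.045) and Aldh1l1 fell by 0.33 ± 0.09 (adjusted p = 0.00949). NM_001131020 measured 7.94, 7.96 and 8.33 in CM FC and 8.44, 9.52, 8.69 and 9.81 in SC FC, with no overlap, and Glul was the other member without overlap, against 25.3% of all features. NM_010277 measured 9.08, 10.08, 9.47 and 10.57 in SC FC, so the lowest SC array, L52, lay inside the CM range of 8.88 to 9.14. Aldh1l1 was also lowest on that array, at 12.93, below all CM FC arrays (13.11, 13.26 and 13.15). L52 was the SC FC array that did not share slide 1. Without it all 3 calls were kept, with larger differences. Other arrays decided the calls. Gfap NM_010277 gave -0.55 without L58 (adjusted p = 0.22), -0.82 without L54, -0.85 without O54 and -0.83 without O56, none past the threshold. Gfap NM_001131020 lost its call without the same arrays, at -0.75, -0.97, -1.0 and -1.02. Aldh1l1 lost its call without L54 (-0.29, adjusted p = 0.0566).

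None of these 3 values passed when slide was in the model. With slide as a fixed block they were -0.22 (adjusted p = 0.99), -0.82 (adjusted p = 0.891) and 0.16 (adjusted p = 0.933), and 0 of 31395 features passed in FC with limma. The smallest adjusted p of a member there was that of Vim, which was higher in CM FC (0.71 ± 0.3, adjusted p = 0.641). With slide as a random block the 3 values were -0.89 (adjusted p = 0.233), -0.86 (adjusted p = 0.25) and -0.24 (adjusted p = 0.198). Diet and slide could be separated in FC only through arrays of other regions. Of 9 oligodendrocyte features, 5 were lower and 1 higher in CM FC (66.7%, against 28.6% of all features), and none passed with the slide block. The mean level of this list was 12.05 to 12.36 in CM FC, against 12.06 on L52 and 12.57 to 13.09 on the other SC FC arrays. The mean level of ependyma and tanycyte markers was 6.27 to 6.56 in CM FC and 6.11 on L52 of SC FC, against 7.16 to 7.60 on the other SC FC arrays. Their median difference was -0.69. Of 6 features Col23a1 alone passed (-0.94 ± 0.32, adjusted p = 0.0325), though not with the slide block. That was 16.7%, against 28.6% of all features. The striatum list had a median difference of -1.06, with 1 of 10 features lower (10%, against 28.6% of all features). Its mean levels were 9.75 to 11.93 in SC FC and 9.71 to 11.84 in CM FC. The part of these lists in the Gfap and Aldh1l1 results was not tested. None of the 11 members reached the combined fold and p thresholds of the study's methods in any region. Of all features 2.94% did so in FC, 0.602% in ST and 0.178% in HT.

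**Figure D3:**
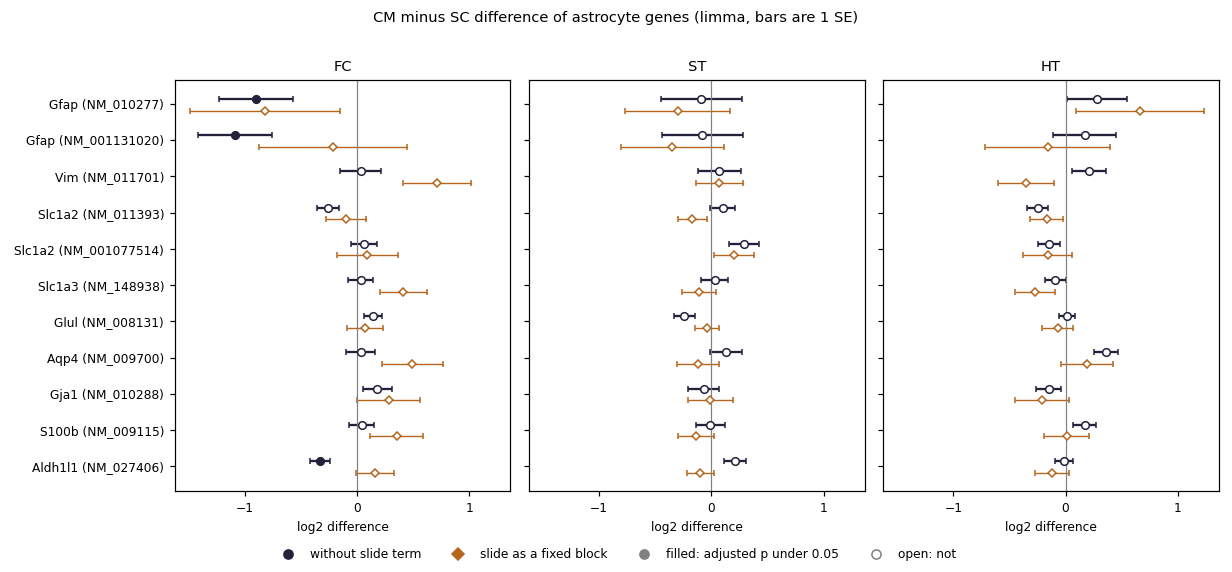
CM minus SC log2 difference (horizontal axis) of the 11 features (vertical axis) in FC, ST and HT. Circles are from the model without a slide term and diamonds from the model with slide as a fixed block, bars are 1 SE, and filled symbols passed an adjusted p of 0.05. The filled symbols are the 2 Gfap features and Aldh1l1 in FC, without the slide term.

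In ST and HT no member passed the test for diet (limma), against 9.82% and 0.43% of all features. In ST the unadjusted p was under 0.05 for 3 members, against 25.5% of all features: Glul (-0.24 ± 0.09, adjusted p = 0.0779), Slc1a2 NM_001077514 (0.29 ± 0.13) and Aldh1l1 (0.21 ± 0.10). In HT it was so for 2, against 13.2% of all features: Aqp4 (0.36 ± 0.11, adjusted p = 0.14) and Slc1a2 NM_011393 (-0.25 ± 0.09, adjusted p = 0.188). The 4 CM HT arrays of Aqp4, at 11.63 to 11.74, lay above all SC HT arrays, the only member there without overlap, against 6.77% of all features. Within slide 2, which held 4 CM arrays and 1 SC array of HT, the difference was 0.17 for Aqp4 and 0.15 for Slc1a2 NM_011393, the latter opposite in sign to the value over all HT arrays. Within slide 1, with 4 CM arrays and 1 SC array of ST, it was 0.10 for Glul, opposite in sign to the value over all ST arrays, and 0.11 for Aldh1l1.

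The diet effect differed between regions for a few members. Between FC and ST it differed for 2 of 11 features (18.2%, against 30.1% of all features), Aldh1l1 by -0.54 ± 0.14 (adjusted p = 0.00543) and Glul by 0.38 ± 0.12 (adjusted p = 0.0189). Between FC and HT it differed for 1 of 11 (9.09%, against 20% of all), Gfap NM_001131020 by -1.26 ± 0.44 (adjusted p = 0.0472). That call was kept in 6 of 15 fits that left out 1 array, and lost without L54 or L58 of SC FC, O54 or O56 of CM FC, L52, L54 or L56 of SC HT, or O54 or O56 of CM HT, with values from -1.34 to -0.92. No feature of the whole table differed between ST and HT at an adjusted p of 0.05, and 3 members had an unadjusted p under 0.05, against 14.8% of all features. None of the 3 named differences passed with either slide block, fixed or random, and with the fixed block Gfap NM_001131020 was at -0.06, Glul at 0.11 and Aldh1l1 at 0.26, the last with the sign turned.

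A longer list of 34 other astrocyte genes, 36 features, was measured beside the members. In SC mice 21 of them were higher and 4 lower in HT than in FC (69.4% called, against 43.2% of all features), and 18 higher and 3 lower in HT than in ST (58.3% against 21.5%), with medians of 0.36 and 0.35 against 0.02 and 0.03 over all features. With slide as a fixed block 16 were higher and 3 lower in both comparisons, where 14.8% and 15% of all features were called. Agt, which encodes angiotensinogen, differed most. It lay at 7.22 to 9.13 in the SC FC arrays and at 11.45 to 12.52 in SC HT, a difference of 3.93 ± 0.44 (adjusted p = 1.29e-06). Itih3 (2.57 ± 0.37) and the GABA transporter gene Slc6a11 (1.95 ± 0.31) were also higher in HT, as was the potassium channel gene Kcnj10 (1.1 ± 0.13). The genes that were lower in HT included Chrdl1, an astrocyte-secreted antagonist of bone morphogenetic proteins (-2.84 ± 0.18 and -2.30 ± 0.13 for its 2 features), and Dio2, which activates thyroid hormone (-1.95 ± 0.28). Sox9, a transcription factor used to count astrocyte nuclei, measured 9.41 to 9.62 in SC FC, 9.22 to 9.65 in SC ST and 9.41 to 9.77 in SC HT, and did not pass the test. The list's mean level in each array was 11.73 to 12.07 in SC FC, 11.68 to 12.01 in SC ST and 12.17 to 12.31 in SC HT.

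**Figure D4:**
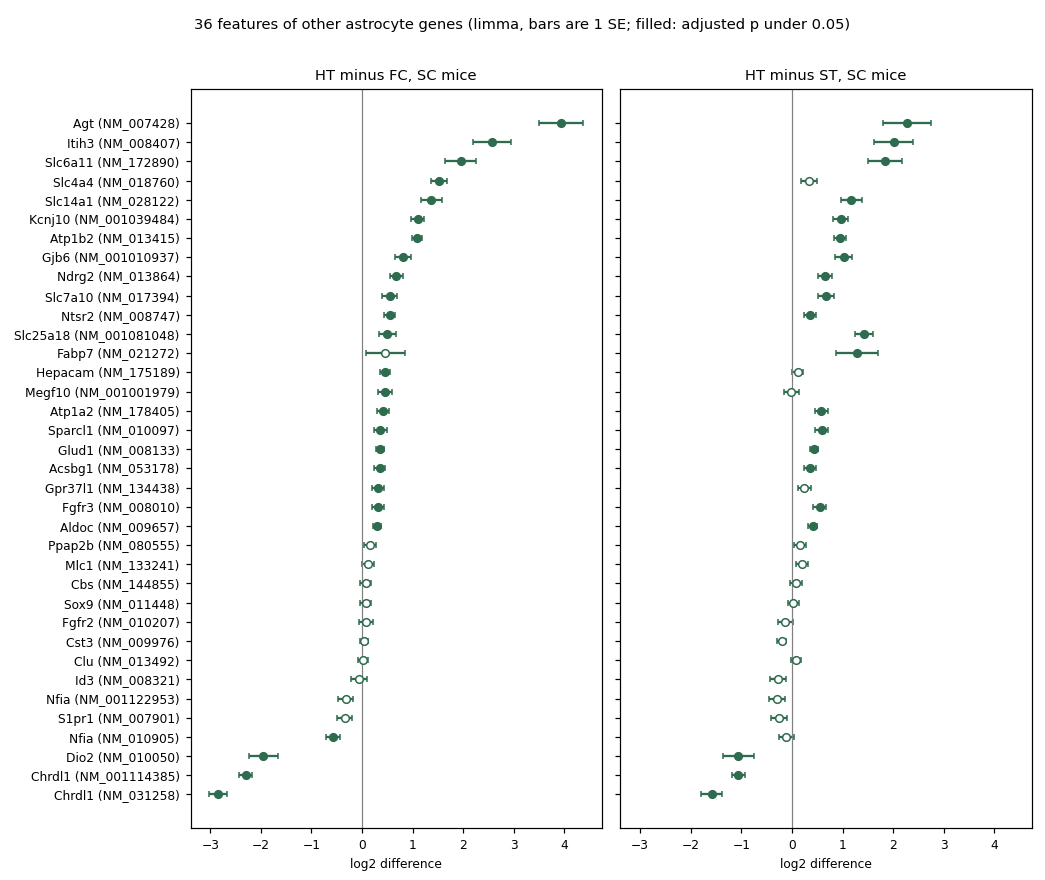
Log2 difference (horizontal axis) of 36 features of other astrocyte genes (vertical axis, ordered by HT minus FC) in SC mice, HT minus FC at left and HT minus ST at right. Points are limma estimates, bars are 1 SE and filled points passed an adjusted p of 0.05. Agt lies highest at 3.93 and Chrdl1 lowest at -2.84 for HT minus FC.

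For diet, few of these features were called. In FC 1 feature was higher and 2 lower (8.33%, against 28.6% of all features), Slc4a4 by 0.45 ± 0.14, Fgfr2 by -0.46 ± 0.12 and Hepacam by -0.29 ± 0.09. In ST Slc4a4, a sodium bicarbonate cotransporter, was lower by 0.79 ± 0.15, and in HT none passed. None of these passed with the slide block. The FC count was 6 without L52, 5 without L56 and 1 without O54, and the ST count 5 without L54 and 2 without L56 or L58. Of 11 features of genes known from reactive astrocytes, Cd44 alone was higher in CM FC (0.40 ± 0.12), though not with the slide block. That was 9.09%, against 28.6% of all features. None passed in ST or HT, against 9.82% and 0.43% of all features. In SC mice 3 of these 11 were higher and 3 lower in HT than in FC (54.5%, against 43.2% of all features), among them Cd44 (0.64 ± 0.14), Aspg (-0.94 ± 0.28) and Timp1 (-0.78 ± 0.28). With the slide block 1 was higher and none lower, against 14.8% of all features called. Between HT and ST 2 were higher (18.2%, against 21.5% of all features), and between ST and FC 2 were lower (18.2%, against 14.9%).

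Of 14 features for neuronal and glial partner genes of the glutamate and GABA cycle, 5 were higher and 3 lower in SC HT than in SC FC (57.1%, against 43.2% of all features). With the slide block 3 were higher and 2 lower, against 14.8% of all features called. The HT-FC difference was 3.99 ± 0.44 for Slc17a6, the vesicular transporter of subcortical glutamate neurons, and -3.56 ± 0.56 for Slc17a7, that of cortical ones. It was 0.32 ± 0.07 for Slc38a1, a neuronal glutamine transporter. By diet, 1 feature was higher and 3 lower in FC, the same 28.6% as over all features, 1 was lower in ST (7.14%, against 9.82%) and 1 higher in HT (7.14%, against 0.43%), and none passed with the slide block. Markers of other cell types were compared between HT and FC of SC mice, where 43.2% of all features were called, and 14.8% with the slide block. For microglia 5 of 6 features (83.3%) were lower and none higher, 2 of them with the slide block. For neurons 3 of 7 were lower and 1 higher (57.1%), with 3 lower under the block. For endothelium 1 of 6 was higher and 1 lower (33.3%), none under the block. Their part in the regional differences of the members was not tested.

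Across the 23 arrays, which share diet, region and slide structure, Aqp4, Gja1 and S100b followed the mean of the other astrocyte list (r = 0.95, 0.90 and 0.86), and Slc1a2 NM_011393 ran against it (r = -0.79). As deviations from the group means the values were 0.89, 0.67, 0.64 and 0.08. Aqp4 and Gja1 correlated at 0.88 with each other, and Gfap NM_010277 with the list at 0.42. The features of other genes most like each member by Pearson's r were Jam2 for Aqp4 (0.96), LOC100505122 for Slc1a2 (0.96), Snx1 for S100b (0.95), LOC636187 for Gja1 (0.95) and Tcf7l1 for Gfap (0.91). For Aldh1l1 it was Mical1 (0.89), for Glul 2310005E17Rik (0.87), for Slc1a3 Six2 (0.85) and for Vim Cnn1 (0.81).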

How the data were processed

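RNA of FC, ST and HT was measured on 23 one-color Agilent mouse arrays. The scanner files hold spot intensity, extracted by the authors with Feature Extraction 10.7.3.1, and the array annotation uses mm9. The deposited log2 values were made by the authors in limma: normexp background correction, quantile normalization, a filter against negative controls (above 1.1 times their 95 th percentile on at least 4 arrays) and averaging per transcript identifier. That processing was rebuilt from the intensities and differed from the deposited log2 table by at most 5e-09. Quantile normalization sets all arrays to one distribution, so only changes relative to other genes can be read. Precision is set by how many arrays each group has.

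The 31395 features were fitted in limma 3.58.1 (R 4.3.3, statmod 1.5.0) with 6 group means, array weights and mouse as a random block, and moderated tests were adjusted by Benjamini-Hochberg over all features. A feature was called at an adjusted p under 0.05. The study's thresholds, a 2-fold change with adjusted p under 0.01 (FC, ST) or a 1.5-fold change with adjusted p under 0.05 (HT), were a further rule. Errors are SE unless SD is named. Groups and mouse numbers came from the sample labels. Regions were paired by mouse, since arrays of the same number and diet are from the same animal, although their deviations from the group means correlated at only -0.49 to 0.13 (median 0.02, 22 pairs). Each array is taken as 1 mouse, as labelled.

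Every member feature is accounted for. The feature with the highest mean is the main one of a gene, and the feature of another symbol with the highest Pearson's r is named. From the longer lists the rule named up to 3 called features with the largest difference per comparison. Sox9, Slc6a11, Kcnj10, Dio2, Slc38a1 and Hepacam, where outside this rule, were named after their values were seen. The members and lists were chosen with earlier results of these data known. Alternatives were slide as a fixed or random block, no or a fixed replicate block, no array weights, fewer arrays, other background, scaling and filter settings, 1 value per probe, and leaving out each array. The fits were tested on simulated data with independent noise and no slide or mouse effects. That test cannot cover the effect of the slide layout. No protein table or genome was used here.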

Additional observations from a re-analysis of the deposited data

Results flagged for a closer look

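Of 55 groups of 4 arrays tested among the members, 4 held an array whose gap to its nearest neighbor passed Dixon's 95% limit, which chance passes in about 1 in 20 groups. These were Slc1a2 NM_001077514 at 11.35 in CM ST of mouse O54, Aldh1l1 at 12.93 in SC FC of mouse L52, Aldh1l1 at 13.44 in CM ST of mouse O58 and Vim at 11.27 in SC HT of mouse L58. L52 of SC FC and L58 of SC HT were the arrays of their groups that lay alone on slide 2.

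The diet effect differed between regions by a test of the difference itself in 3 cases. CM minus SC in FC less that in ST was -0.54 for Aldh1l1 and 0.38 for Glul, and FC less HT was -1.26 for Gfap NM_001131020 (limma, adjusted p = 0.00543, 0.0189 and 0.0472). The part of slide in these differences cannot be told apart from diet in FC, where no slide held both diets.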

How the results depend on the processing

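Of 38 called member values, 18 kept direction and call with slide as a fixed block, 17 lost the call and 3 reversed: Aldh1l1 for diet in FC (0.16), S100b for ST-FC in CM mice (-0.05) and Aldh1l1 for the FC and ST difference of diet effects (0.26). The number kept was 27 with slide as a random block, 26 without array weights, 30 with the processed signal scaled to its 75 th percentile, 33 with only the arrays compared, 33 without the filter on low values, and 38 with normexp offset 50, with a filter on the scanner's background flag, with no replicate block and with a fixed replicate block. With 1 value per probe 25 of 25 kept it, but only features with a single probe were compared there. The log2 values of such features are the same in both settings, so this count cannot show robustness. Leaving out 1 array kept 270 of 309. The cause of the changes was not tested.

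Counts of members called moved as follows. For diet in FC the count of 3 fell to 0 with either slide block and without array weights. For diet in ST it was 1 with offset 50. For ST-FC in SC mice the 2 became 0 with either slide block, with only the arrays compared and without the filter, and 1 without weights or with the processed signal. For ST-FC in CM mice the 5 became 0 with slide fixed, 3 with slide random and 2 without weights, and for HT-FC in CM mice the 8 became 5 with slide fixed. The FC and ST difference of diet effects went from 2 to 0 with either slide block and without weights, and to 1 with the processed signal. The FC and HT difference went from 1 to 3 with the fixed replicate block and with offset 50, and to 0 with either slide block, without weights, with only the arrays compared, with the processed signal and without the filter. Leaving out 1 array gave 0 to 3 for diet in FC, 0 to 3 in ST, 0 to 1 in HT, 0 to 3 for ST-FC in SC mice and 0 to 3 for the FC and HT difference.

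Mice of different diets share only a number, and same-numbered arrays of a region correlated at -0.32 to 0.14 as deviations from the group means (11 pairs). The processed signal moved the median of all features by up to 0.11. All member probes lay well above background, though 1 Gfap probe of NM_001131020 went down to 5.73. Whether signal limited these values was not tested. With 3 or 4 arrays a group and slides split unevenly over groups, the diet comparison in FC is the least certain.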
